A study of Prunus avium with 27 samples.

Results

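H3K4me3 in flower buds of the sweet cherry cultivar Burlat was compared between 27 January 2015 and 21 October 2014, 98 days apart, with 2 libraries on each date. The buds came from orchard-grown trees and carry no treatment other than the season; October buds are labelled dormant and January buds non-dormant, so the date and the dormancy label cannot be told apart. The 4 libraries (replicates 2 and 3 of each date) are among 27 samples of the series, which also hold December buds of 5 December 2014 (labelled dormant), RNA libraries of all 3 dates, and H3 and input chromatin that are not analysed here. The tables list 25635 regions. A region was kept where the deposited signal reached 10 or more in 2 or more of the 4 libraries, which left 15032 (58.6%). At that limit the second highest of the 4 values was 10.0 in the weakest region kept and 9.92 in the strongest one left out, and 5953 of the 10603 regions left out stood at the lowest listed value in all 4 libraries.

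H3K4me3 is histone H3 carrying 3 methyl groups on lysine 4. It is placed by methyltransferases of the trithorax group, sits over the first nucleosomes of transcribed genes, and is generally higher where transcription is more active. Buds of temperate fruit trees stop growing in autumn and need a period of winter cold before they can respond to warmth. In peach, a close relative, release from dormancy is accompanied by loss of this mark at a DORMANCY-ASSOCIATED MADS-box gene. The identifiers in the tables come without names or functions (0 of 29449 matched the RefSeq table of sweet cherry genes), so regions are given here by position, the tissue was not checked against marker genes, and no sequence is shown. The sources used here name no genome build, so whether the positions and identifiers belong to a sweet cherry reference cannot be told.

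Each region has one deposited value per library, a normalised signal. It is used here after every library was scaled to the same sum, and is called scaled signal. The values are whole multiples of 1 step per library, which gives 14898960 and 18279008 recovered reads over the listed regions for the October libraries and 23871977 and 14216613 for the January libraries. Regions at exactly 1 step stand at a minimum, and whether a control was subtracted is not given. The recovered reads may therefore differ from the reads sequenced over these regions. Across the kept regions log2(scaled signal + 1) correlated at 0.953 between the October libraries, at 0.956 between the January libraries, and at 0.849 to 0.883 between the dates. These correlations are across regions, which are not independent replicates. As the step is the same for all regions of a library, the signal is not corrected for length. A longer region can therefore have more signal. Whether libraries of one date stem from different trees is not in the labels, and the spread behind the p-values may therefore be technical.

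The mark was called changed at 5400 regions (35.9%), in both directions, and the losses were deeper. In limma with Benjamini-Hochberg adjustment, with a region called at an adjusted p under 0.05, 2512 regions had more H3K4me3 in January than in October (16.7% of those tested) and 2888 had less (19.2%). The median size of a gain was 0.31 on the log2(signal + 1) scale and that of a loss was -0.68. Gains of at least 2-fold numbered 193 (1.28%) and losses of at least 2-fold 966 (6.43%); at 8-fold or more there were 57 gains and 225 losses. Both January libraries stood above both October libraries at all 2512 gained regions, as they did at 33.3% of the regions tested, and below them at all 2888 lost regions, as at 35.7% of the regions tested. In whole buds, a change in the share of cells that carry the mark and a change of the mark within each cell cannot be told apart.

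Losses of at least 2-fold outnumbered gains of that size in every alternative run. With edgeR on the recovered reads there were 160 such gains and 810 such losses. The size of the excess depended on the scaling and on 1 library. Quantile normalization, which gives every library the same distribution of values, left 428 gains and 558 losses of at least 2-fold. Without October replicate 3 there were 350 gains and 631 losses of that size. The number of gained regions was 1510 without January replicate 2 and 1628 without January replicate 3, and the values as deposited, without scaling to the same sum, gave 896 gains and 1495 losses.

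**Figure D1:**
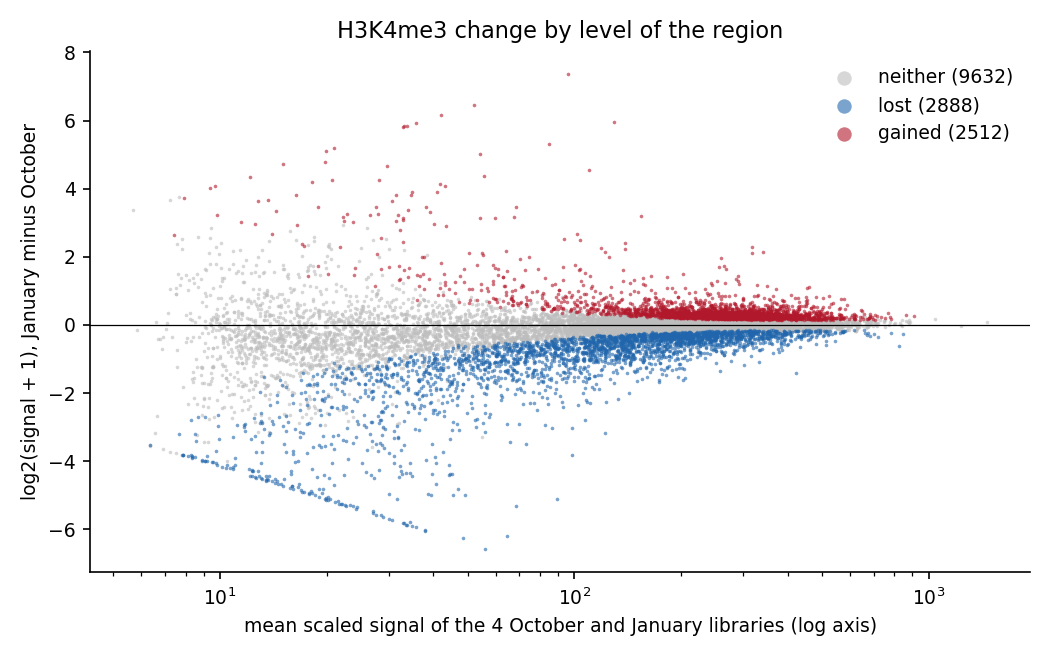
Each point is 1 of the 15032 regions; the horizontal axis is its mean scaled signal in the 4 October and January libraries (log axis) and the vertical axis its change in log2(signal + 1) from October to January. The 2888 lost regions spread to the lower left, where the signal is weak, and the 2512 gained regions crowd at high signal with small changes; the straight lower edge is formed by regions at the lowest listed value in January.

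Gains lay mostly at strongly marked regions and losses at weakly marked ones. The regions were divided into 5 equal classes by signal. In the class with the least (median scaled signal 25.9), 131 gained the mark (4.36%) and 750 lost it (24.9%). The lost share was highest in the next class (median 107.0), where 253 gained (8.42%) and 952 lost (31.7%). In the class with the most (median 366.3), 911 gained (30.3%) and 292 lost (9.71%). The middle class, at a median of 182.1, was closest to balance, with 460 gained (15.3%) and 545 lost (18.1%). Size went the other way for gains. Changes of at least 2-fold lay mostly in the weakest class in both directions, with 121 of 193 gains and 675 of 966 losses. In the strongest class 5 gains and 2 losses reached that size, so its gains were nearly all small. In the weakest class the median region read 25.6 and 34.8 in the October libraries, 20.0 and 24.9 in December, and 18.3 and 19.9 in January. Both January libraries were below both October libraries there, and October replicate 3 was the highest of the 6. In the strongest class the order was the opposite and the differences small, with 364.9 and 351.7 in October and 377.4 and 379.1 in January.

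Quantile normalization removed most of this tilt with level: the weakest class then had 12.3% gained and 15.2% lost, and the strongest 20.0% gained and 19.6% lost. With libraries scaled to the same sum the tilt was also seen at genes whose RNA was not called different between the dates. Of 687 such genes in the weakest class, 20 regions gained and 95 lost the mark, with a median log2 change of -0.28, and of 830 in the strongest class, 199 gained and 48 lost, with a median of 0.07. Of all 25635 regions, 32.8% and 25.9% stood at the lowest listed value in the October libraries and 32.7% and 32.5% in the January libraries. The part of these unequal floors in the tilt was not tested.

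**Figure D2:**
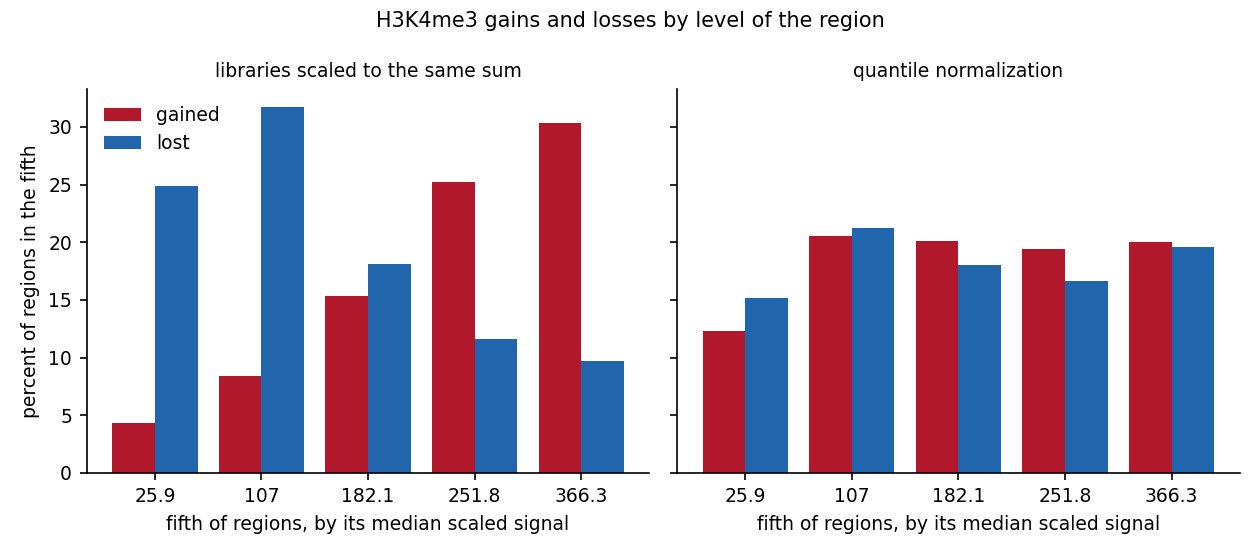
Bars give the percent of regions that gained (red) or lost (blue) H3K4me3 in January, for 5 equal classes of regions labelled by their median scaled signal. With libraries scaled to the same sum the lost share is 24.9% in the weakest class, highest in the next at 31.7%, and 9.71% in the strongest, whereas quantile normalization gives 15.2%, 21.2% and 19.6%.

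The 8 largest gains that reached the median signal of tested regions or more in January are given here library by library. The largest was on scaffold 3 at 2788510 to 2790510, which stood at the lowest listed value in both October libraries and in December replicate 2, at 7.47 in December replicate 3, and at 183 and 201 in January. The mark there appeared after December, in both January libraries. RNA of the gene at this region, PRUPE_ppa000217mg, rose from 3.71 ± 0.93 TPM (a length-corrected expression unit, mean ± SD, n = 3) in October through 13.2 ± 1.21 in December to 127 ± 19.6 TPM in January, a log2 change of 4.78 (SE 0.16).

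The second was on scaffold 4 at 7012836 to 7014836, with the lowest listed value and 12.8 in October, 86.8 and 89.3 in December, and 247 and 257 in January. Its gene had 2.16 ± 0.58 TPM in October, 29.2 ± 4.59 in December and 28.2 ± 2.29 in January, so the RNA was at its January level by December while the mark went on to more than its December value. On scaffold 8 at 18932659 to 18934659 the signal was 1.76 and 27.0 in October, 66.5 and 78.1 in December, and 215 and 197 in January. RNA at this gene rose step by step, with 10.3 ± 0.52, 45.5 ± 4.92 and 78.1 ± 11.8 TPM. The October libraries lie far apart at both regions. The log2 change was 5.96 on scaffold 4, against 4.2 without October replicate 2, 7.72 without October replicate 3 and 4.1 with a pseudocount of 10. It was 4.55 on scaffold 8, against 2.88 and 6.22 without those libraries, and the call held in each.

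The other 5 gains started from a signal of 23.1 or more in both October libraries. On scaffold 1 at 9141946 to 9143946 the signal was 23.1 and 37.0 in October, 143 and 137 in December, and 280 and 278 in January, a 9.28-fold rise of the mean. RNA of its gene went from 8.02 ± 1.09 to 62.1 ± 2.08 and then 103 ± 3.07 TPM. Both assays rose in each interval there. On scaffold 6 at 4986087 to 4988087 the signal rose 5.26-fold, from 34.5 and 54.7 to 223 and 246, after 142 and 131 in December. The most strongly marked of these regions, on scaffold 8 at 21437832 to 21439832, had 94.95 and 118.1 in October, 286 and 266 in December, and 480 and 574 in January. Its gene was already highly expressed in October, at 381 ± 9.06 TPM, and reached 1060 ± 75.6 TPM in January.

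The region on scaffold 6 at 25937333 to 25939333 had 35.0 and 46.8 in October, 159 and 119 in December, and 188 and 207 in January. Here RNA and mark parted after December: the gene's RNA was 4.61 ± 0.21 TPM in October, peaked at 206 ± 26.9 TPM in December and was 26.4 ± 5.52 TPM in January, while the mean signal was higher in January than in December. On scaffold 1 at 46286378 to 46288378 the signal was 36.4 and 62.6 in October, 192 and 166 in December, and 234 and 222 in January, with RNA at 13.1 ± 0.28, 51.7 ± 5.61 and 36.8 ± 4.73 TPM. For these 8 regions the adjusted p of the January to October change (limma, Benjamini-Hochberg) ran from 3.29e-06 to 0.00182, and RNA of all 8 genes was called higher in January.

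Among losses from at least the median signal, the deepest was on scaffold 4 at 1590565 to 1592565. The signal there was 177 and 194 in October, 60.9 and 75.5 in December, and 13.3 and 11.1 in January, 15.2-fold less, while RNA of its gene went from 7.51 ± 1.71 to 1.45 ± 0.14 and 0.710 ± 0.146 TPM. A region of the same scaffold, at 1419312 to 1421312, had 209 and 224 in October, 90.35 and 123.0 in December, and 46.1 and 11.1 in January. The January libraries differ there by several fold, yet both are below every earlier library. Its RNA fell from 45.2 ± 4.89 to 4.76 ± 0.54 TPM.

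On scaffold 5 at 864476 to 866476 the signal was 191 and 186 in October, 50.4 and 61.7 in December, and 32.0 and 21.5 in January. Most of that loss was in place by December, as it was on scaffold 2 at 18869164 to 18871164, where the signal was 176 and 192 in October, 39.3 and 42.2 in December, and 33.48 and 40.01 in January. The gene on scaffold 2 had the steepest RNA fall among these 8, from 138 ± 10.2 TPM in October to 0.734 ± 0.193 in December and 1.68 ± 0.37 TPM in January. Its October RNA was far above the others', although its mean October signal was no higher than theirs.

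The other 4 losses were shallower, 3.73-fold to 4.75-fold, and each continued after December. At 24619056 to 24621056 of scaffold 2, libraries read 204 and 203, then 81.9 and 112, then 51.1 and 34.5. At 21419522 to 21421522 of scaffold 3 they read 211 and 224, then 91.2 and 111, then 45.5 and 50.3. RNA of both genes was called lower, with log2 changes of -2.12 (SE 0.17) and -2.0 (SE 0.34). At 13455989 to 13457989 of scaffold 1 they read 221 and 235, then 76.0 and 98.7, then 66.2 and 48.0, yet RNA there was 7.71 ± 1.20 TPM in October and 6.401 ± 0.973 TPM in January, a log2 change of -0.23 (SE 0.17) that did not pass the test (adjusted p 0.253, limma). The last, on scaffold 8 at 16619854 to 16621854, went from 174 and 198 through 98.6 and 142 to 56.2 and 43.3, with a log2 RNA change of -1.13 (SE 0.17). The adjusted p of the 8 losses (limma, Benjamini-Hochberg) ran from 4.97e-06 to 0.000848. None of these 16 gains and losses lost its call under any alternative that included it. The largest and second largest gains were not part of the run that left out regions at the lowest listed value.

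**Figure D3:**
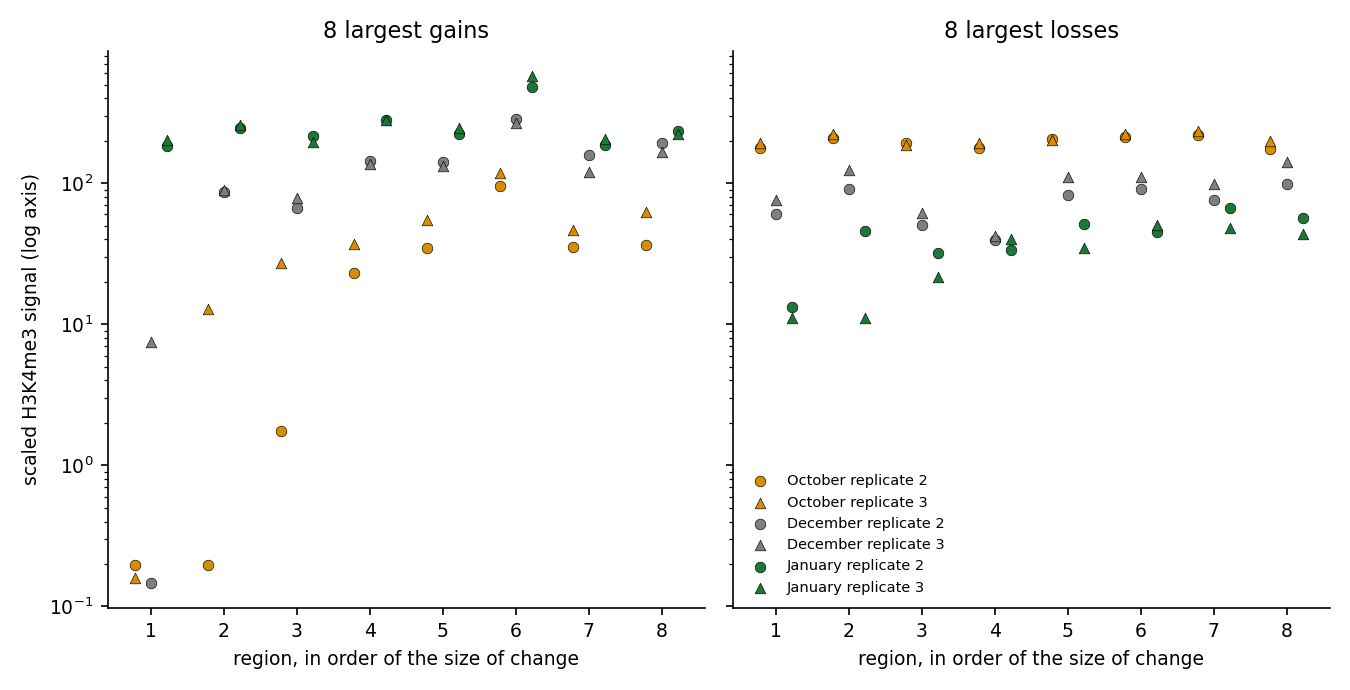
Scaled H3K4me3 signal (log axis) in each of the 6 libraries for the 8 largest gains and the 8 largest losses, in the order of the text; colours mark the date and symbols the replicate. October libraries lie below January libraries in every gain and above them in every loss, because regions were chosen for no overlap between these dates. December libraries lie between the dates in most.

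Some regions crossed between the lowest listed value and a clear signal. Of all 25635 regions, 10 stood at the lowest value in both October libraries and at a deposited signal of 20 or more in both January libraries, and 54 went the other way. The lowest value was listed for 32.8% and 25.9% of regions in the October libraries and for 32.7% and 32.5% in the January libraries. The part of these unequal floors in the 10 and 54 was not tested. The 10 and 54 are counts of library values, with no test of their own. Without October replicate 2, 191 regions were lost in this sense, and without October replicate 3, 52 were gained. Leaving out a library drops a condition, so such a count can only stay or rise and does not measure dependence on that library. In each direction most of these 10 and 54 regions were above the lowest value in both December libraries. Of the 54 lost regions, 6 were at the lowest value in both December libraries, 15 in 1 of them and 33 in neither, and 1 still had a signal of 20 in both; of the 10 gained regions, 5 already had 20 or more in both December libraries and none was at the lowest value in both. The lowest value is a minimum set in the tables and a region there can still hold reads.

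The strongest of the gained ones was the scaffold 3 region described first. The next was on scaffold 5 at 10678180 to 10680180, at 50.9 and 45.4 in December and 89.7 and 119 in January. Its gene was nearly silent on all 3 dates, with 0.652 ± 0.146 TPM in January, and was too low to be tested. On scaffold 5 at 5033845 to 5035845 the signal was 27.8 and 33.0 in December and 88.3 and 79.8 in January, and RNA rose from 2.48 ± 1.57 TPM in October to 42.0 ± 9.28 TPM in January.

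Of the lost ones, the strongest in October was a longer region on scaffold 1 at 24989837 to 24995781, with 90.6 and 133 in October and 3.40 and 42.5 in December. It holds the start windows of 2 genes. RNA of one changed by -1.01 on the log2 scale (SE 0.18), and the other had at most 1.64 TPM in any October library and was too low to be tested. Regions on scaffold 6 at 26207863 to 26209863 (70.1 and 81.5 in October) and on scaffold 3 at 2107336 to 2109336 (68.5 and 82.3 in October) followed, with RNA log2 changes of -2.14 (SE 0.19) and -2.32 (SE 0.27). In the RNA, 34 of 39 tested genes at the 54 lost regions were called lower and 2 higher, and 8 of 9 at the 10 gained regions higher and 1 lower. Over all genes joined to a tested region, 28.3% were lower and 34.8% higher. At all regions that lost the mark 69.7% were lower, and at all that gained it 71.0% were higher.

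RNA from buds of the same branches, in libraries that the H3K4me3 calls did not use, moved with the mark. RNA was compared between the same dates with 3 libraries each, and 31.7% of 18384 tested genes were called higher in January and 29.4% lower (limma, Benjamini-Hochberg), 6.04% and 14.1% by 2-fold or more. Of 12594 tested genes joined to exactly 1 tested region by their start, 34.8% were higher and 28.3% lower. At regions that gained the mark, 1626 of 2289 genes were higher (71.0%), 110 lower (4.81%) and 553 were not called. At regions that lost it, 1659 of 2381 were lower (69.7%), 95 higher (3.99%) and 627 were not called. The median RNA change was 0.51 at gained and -0.83 at lost regions, against 0.06 over all joined genes (log2(TPM + 1), a scale on which weakly expressed genes appear to change less).

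In all 5 signal classes most genes at called regions had RNA called in the direction of the mark. In the weakest class of regions, 77.9% of genes at lost regions were lower in RNA and 81.1% at gained regions higher; in the strongest class these shares were 76.7% and 66.6%. In the 3 classes between, 63.9% to 69.3% of genes at lost regions were lower and 71.6% to 74.8% at gained regions higher. With quantile normalization of the signal, 68.4% of genes at gained regions were higher. At changes of 2-fold or more the shares were 81.8% higher at gained regions (144 of 176) and 82.0% lower at lost regions (593 of 723). Genes at strongly gained regions were weakly expressed in October, with a median of 8.12 TPM, and had 26.2 TPM in December and 36.5 TPM in January. The median gene at regions that lost the mark by 2-fold or more went from 13.5 to 5.23 and 4.07 TPM.

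**Figure D4:**
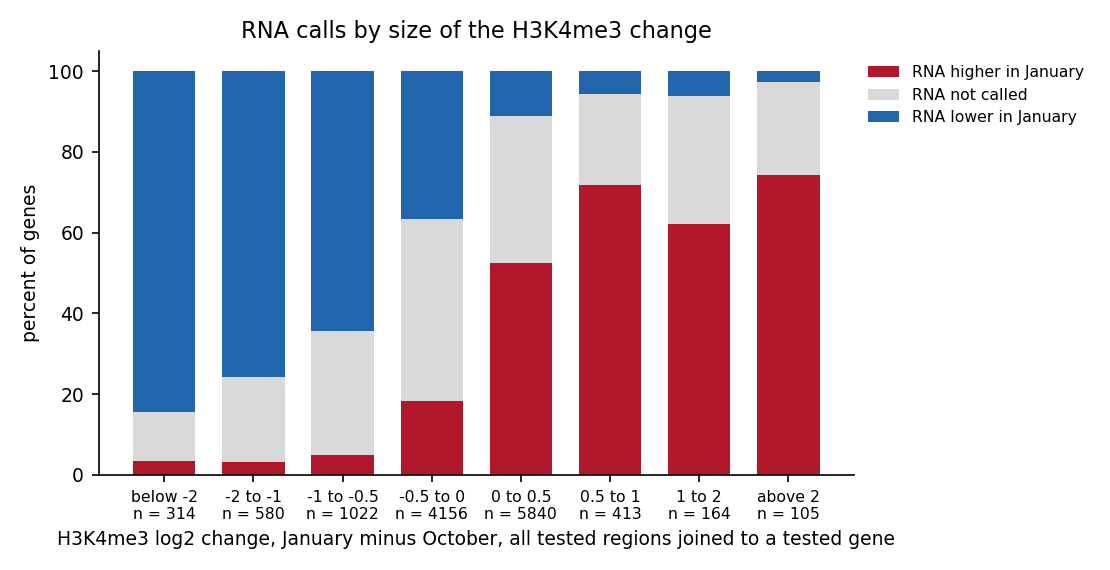
Bars divide the tested genes by RNA call (higher, not called or lower in January) within classes of the H3K4me3 log2 change of their region, called or not; n is the number of genes in a class. The share with lower RNA goes from 84.4% where the mark change was below -2 to 5.57% where it was 0.5 to 1, and the share with higher RNA from 3.5% to 71.9%. At changes of 1 to 2 the shares were 6.1% lower and 62.2% higher, and above 2 they were 2.86% and 74.3%.

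Across the 12594 genes the changes of mark and RNA correlated at 0.572 (Pearson) and 0.609 (Spearman), which describes these genes and does not treat them as replicates. Larger losses went with lower RNA more often, from 64.4% of genes at a change between -1 and -0.5 to 84.4% below -2. On the gaining side these classes, which hold regions called or not, showed no such order. There 71.9% of genes had higher RNA at changes from 0.5 to 1, 62.2% from 1 to 2 and 74.3% above 2. Among called gains alone the share was larger at larger changes, with 70.1% under 2-fold and 81.8% at 2-fold or more. Read from the RNA, 305 of 394 genes that fell at least 4-fold had lost the mark (77.4%) and 89 had no call of a loss or gain. Among 120 genes that rose at least 4-fold, 93 had gained it (77.5%) and 2 had lost it. Smaller RNA changes were less often accompanied by a call: of all genes higher in RNA 37.1% gained the mark, and of all genes lower 46.5% lost it. Of the 4643 genes with no RNA call, 11.9% gained and 13.5% lost the mark.

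**Figure D5:**
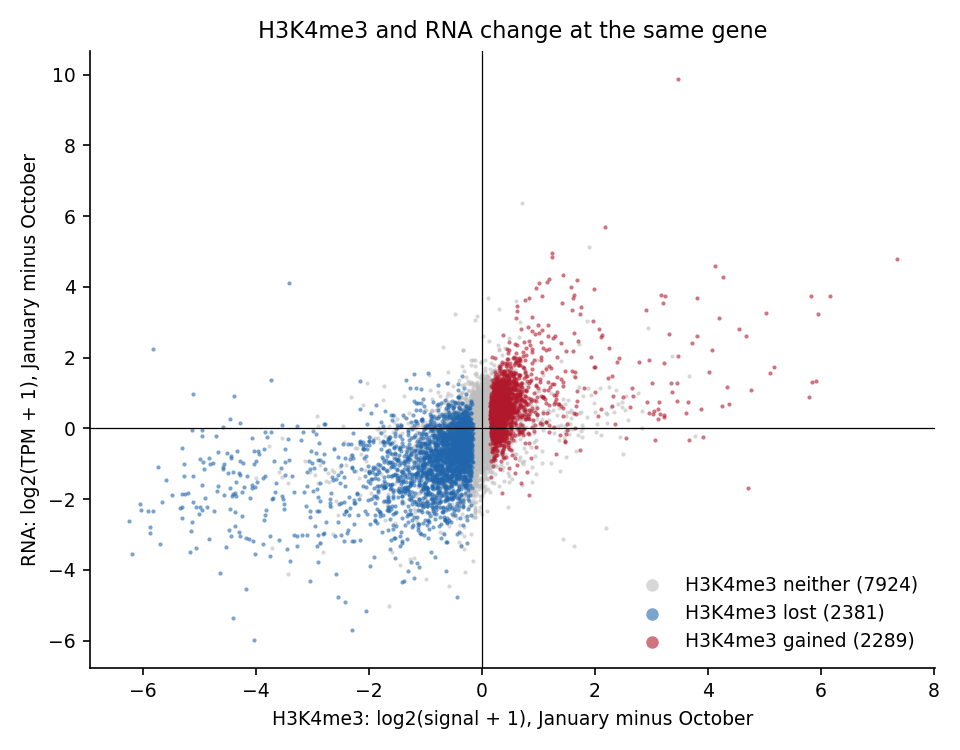
Each point is 1 of 12594 genes, with the H3K4me3 change of its region on the horizontal axis and its RNA change on the vertical axis, both as January minus October on a log2 scale. Genes at gained regions (2289) lie mostly upper right and those at lost regions (2381) mostly lower left, with 205 genes called in opposite directions.

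The genes with the largest joint rise were at the scaffold 3 and scaffold 5 regions above and on scaffold 1 at 1499480 to 1501480. The last, PRUPE_ppa011907mg, had 0, 0 and 0.326 TPM in the October libraries, 237, 168 and 115 TPM in December and 1103, 1157 and 873 TPM in January. Its region followed later: the signal was 7.24 and 14.7 in October, 7.99 and 12.2 in December, and 114 and 138 in January. RNA in every December library was above every October library, while both December signals lay within the range of the October signals. The H3K4me3 change from October to January was 3.48 (SE 0.42, limma adjusted p 0.00029).

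Of the 3 largest joint falls, the first 2 were at weakly marked regions of genes with high October RNA. PRUPE_ppa007427mg, on scaffold 6 at 28255249 to 28257249, had 226 ± 56.6 TPM in October, 10.6 ± 2.38 in December and 2.58 ± 0.73 TPM in January. Its signal was 29.0 and 33.5 in October, 2.81 and 16.1 in December, and the lowest listed value and 2.46 in January, and its H3K4me3 call did not hold when weak regions were not filtered out (limma adjusted p 0.0604, against 0.00908 as reported and 0.0033 at the lowest; DESeq2 gave 0.000108). PRUPE_ppa002363mg, on scaffold 1 at 2033503 to 2035503, fell from 696 ± 48.7 TPM through 86.4 ± 9.13 to 16.2 ± 1.69 TPM, with a signal of 58.1 and 45.6, then 8.72 and 12.6, then 2.08 and 1.03. On scaffold 4 at 6476560 to 6478560 most of the fall came after December, in mark and RNA alike. The signal was 132 and 124 in October, 75.7 and 71.5 in December, and 1.59 and the lowest listed value in January, with RNA at 13.9 ± 1.45, 9.78 ± 2.42 and 0.273 ± 0.071 TPM.

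Genes called in opposite directions in the 2 assays numbered 205 of 4670 joined to a changed region. A region on scaffold 8 at 16181627 to 16183627 went from the lowest listed value in both October libraries to 20.3 and 18.5 in December and 29.5 and 30.6 in January, while RNA fell from 259 ± 27.3 to 148 ± 11.9 and 80.4 ± 1.61 TPM. On scaffold 8 at 14884335 to 14886335 the signal rose 1.81-fold, from 46.2 and 48.7 to 81.7 and 89.7, and RNA fell from 72.2 ± 3.92 to 18.8 ± 1.65 TPM. On scaffold 1 at 37820131 to 37822131 the mark went from 52.5 and 79.5 in October to the lowest listed value in both January libraries, and RNA rose from 2.19 ± 0.85 to 13.8 ± 1.85 TPM. A weaker region, on scaffold 3 at 95374 to 97374, had 21.1 and 11.8 in October and the lowest listed value and 1.23 in January, with RNA up from 0.484 ± 0.054 to 27.4 ± 16.5 TPM. Its H3K4me3 call was lost with quantile normalization (limma adjusted p 0.419) and without October replicate 2 (0.0778), against 0.0134 as reported. Its other limma alternatives gave 0.0136 to 0.0494, edgeR 0.00982 and DESeq2 4.33e-05 (adjusted p). A window of fixed length around a gene start can also hold the start of a neighbour, which was not examined at these regions.

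Of the 4 called regions named for the highest signal, 3 changed by 1.19-fold to 1.22-fold and the fourth fell 1.53-fold. The called gains with the highest signal were on scaffold 1 at 44564194 to 44566194, at 853 and 814 in October and 981 and 998 in January, and on scaffold 6 at 251599 to 253599, at 821 and 736 and then 927 and 977. The rises were 1.19-fold and 1.22-fold, and both calls were lost with the values as deposited (limma adjusted p 0.117 and 0.0685) and without January replicate 3 (0.0511 and 0.0614), against 0.00602 and 0.00649 as reported. Over the limma alternatives the adjusted p ran from 0.000925 to 0.117 and from 0.000328 to 0.0685, and DESeq2 gave 2.3e-06 and 1.99e-05. On scaffold 7 at 20732785 to 20734785 the signal fell from 938 and 911 to 773 and 766, a call that the values as deposited did not give (limma adjusted p 0.308, against 0.00467 as reported and 1.21e-05 at the lowest, with quantile normalization), while RNA rose by 0.42 on the log2 scale (SE 0.10). A longer region on scaffold 3 at 17443913 to 17451186 fell from 995 and 1000 in October to 577 and 728 in January, after 575 and 603 in December. Its October values were the highest named here, without correction for its length. RNA of both genes whose start windows it holds was called lower, by -0.87 (SE 0.20) and -1.78 (SE 0.67) on the log2 scale. The second call was close to the limit (limma adjusted p 0.0407). That gene had 15.6, 16.6 and 7.19 TPM in October and 1.17, 2.14 and 7.64 TPM in January, so its libraries overlap between the dates.

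December levels mostly lay between those of October and January. These values describe the regions and are no test, because the regions were chosen on October and January. Of 2512 gained regions, 1849 (73.6%) had a December mean between the other dates, 530 (21.1%) were above the January mean in December and 133 (5.3%) below the October mean. Of 2888 lost regions, 2325 (80.5%) lay between, 454 (15.7%) were below January and 109 (3.8%) above October. The median gained region had covered 71.1% of its log2 change by December, 45 days into the 98, and the median lost region 61.3%. For changes of 2-fold or more these figures were 61.2% and 55.2%.

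Changed regions were spread over the scaffolds. The share gained ran from 15.7% to 18.6% over the 8 large scaffolds and the share lost from 18.2% to 20.1%, close to the 16.7% and 19.2% of all regions. Regions at genes on the plus and the minus strand were called about as often, with 16.9% and 16.8% gained and 18.8% and 19.6% lost. The next tested region along the scaffold after a gained one had also gained in 19.9% of cases, and after a lost one had also lost in 23.0%, slightly above the background shares. Neighbouring windows can share reads, and this was not tested.

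Longer regions, of which 2152 of 2158 in the tables hold the start windows of 2 genes, were called about as often as those of 2000 bp, with 15.4% gained and 19.7% lost of 1326. Where a longer region with 2 genes gained the mark and RNA of both was tested (136 regions), both genes were higher in 48, 1 was higher and the other not called in 54, the pair moved in opposite directions in 19, and both were lower in 1. Where it lost the mark (146 regions), both were lower in 36, 1 lower and the other not called in 43, opposite in 16, and both higher in 6. Among 511 longer regions with neither call, both genes were higher in 58, 1 was higher and the other not called in 166, 1 was lower and the other not called in 58, both were lower in 28, and the pair moved in opposite directions in 81. The 671 regions that carry an identifier in the tables behaved differently. Of these, 392 passed the filter, and 65 gained (16.6%) and 278 lost (70.9%) the mark, with a median log2 change of -2.71; the sources used here do not give how the submitters chose the regions to label, so this is no independent evidence. Genes at gained regions spanned a median of 3310 bp, those at lost regions 2100 bp and those at the other regions 2764 bp, with wide and overlapping quartiles (2171 to 5001, 1345 to 3195 and 1689 to 4198 bp).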

How the data were processed

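Groups came from the labels: 2 H3K4me3 libraries (replicates 2 and 3) and 3 RNA libraries per date. For H3K4me3 the authors deposited a normalised signal per region, named TMM in the file headers. For RNA they deposited TPM per gene, which keeps no depth; the authors made both. Tools named without versions, per the submitters' processing notes, are DiffBind, Bowtie2, Trimmomatic, FastQC and Picard for chromatin, and TopHat and Picard for RNA. The sources used here give no genome build and do not say whether a control was subtracted. In each H3K4me3 library 100% of values were whole multiples (within 0.01) of the lowest value, and the multiples were taken as recovered reads, 14216613 to 28126160 per library; exactly 1 step was listed for 25.9% to 32.8% of regions, so that value is a minimum.

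Every H3K4me3 library was scaled to the same sum. One limma fit (3.58.1, R 4.3.3, trend on intensity) of log2(signal + 1) took all 6 libraries by date, so that December adds to the estimate of the spread, and the contrast was January minus October. As alternatives, edgeR 4.0.16 and DESeq2 1.42.0 took the recovered reads and called 5113 and 6223 regions. RNA was fitted in the same way on log2(TPM + 1) for 9 libraries and genes reaching 1 TPM in 3 or more of them. Tests were two-sided with Benjamini-Hochberg adjustment over all features tested. Functions were tested on simulated data. Regions spanning 500 bp before to 1500 bp after a gene's start were joined to that gene, as all 671 labelled regions do, which gave 23468 of 25635 (91.5%) with exactly 1 gene.

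Named regions are the 8 largest gains and 8 largest losses with no overlap between libraries and a mean signal at the higher date of the tested median or more, the 3 strongest per direction that crossed from or to the lowest value, the 3 largest joint changes with RNA, the 2 largest opposite ones (at 5 TPM or more), and the 2 with most signal. The members and lists were chosen with earlier results of these data known.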

Additional observations from a re-analysis of the deposited data

How the results depend on the processing

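Of 5400 called regions, none changed sign under any alternative in which it was tested (517 were not tested at a filter of 50, and 256 with lowest values left out), and 4899 were also called by edgeR and 5303 by DESeq2 in the same direction. With values as deposited 2391 regions were called, 896 gained and 1495 lost, and without a filter on low signal 1666 gained. Leaving out 1 library gave 3705 to 4880 regions, with 1510 to 2237 gained and 1944 to 2643 lost. Changes of 2-fold or more were 127 to 350 gains and 631 to 935 losses in the same runs, 428 and 558 with quantile normalization, and 533 losses with a filter at a signal of 50. Regions crossing from or to the lowest value numbered 16 gained and 104 lost at a signal of 10, and 7 and 11 at 50. Without single libraries they ran from 10 to 52 gained and from 54 to 191 lost, runs chosen after seeing the data. Leaving out a library drops a condition there, so these counts could only stay or rise. RNA was higher at 78.7% of gained regions and lower at 79.7% of lost ones with values as deposited. Without single libraries these shares ran from 71.4% to 74.4% and from 70.5% to 75.0%. Quantile normalization gave 68.4% for gained, and edgeR 71.6% for lost regions, both added after seeing the data. Genes called in RNA numbered 10123 to 11386 over the alternatives, against 11234. Apart from that dropped condition, the causes of these shifts were not tested.

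The labels do not say that replicate numbers pair the libraries. For H3K4me3, deviations of same-numbered libraries from the date means correlated at -0.095 between October and January, 0.413 between October and December and -0.132 between December and January; for RNA they correlated at 0.002 to 0.105 between October and January. With replicate number as a block, 5141 regions were called, 203 gained and 989 lost at 2-fold or more. Depth limits weak regions most: the January libraries differ in recovered reads (23871977 and 14216613), and its part in losses at weak regions was not tested. Of 33 named regions, 28 kept their call under all alternatives that included them.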
